A study of Homo sapiens with 6 samples.

Results

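The 38 genes described here encode proteins of the kinetochore and the centromere, and they were taken by symbol from the 19863 rows of the deposited gene count table, in which all 38 were found. The cells were NGP, an established human neuroblastoma line, and they received OTSSP167 (60 nM, 12 h) or its solvent DMSO. Each group held 3 libraries. The compound OTSSP167 inhibits kinases; it became known through MELK, was later reported to act on several mitotic kinases, and is called a CAMKV inhibitor in the title of the series. The question put to the data was which of these transcripts differed between treated and control cells. The labels name no further agent or genetic change, and cover 1 cell line. They do not state whether replicates were grown as separate cultures. The p-values therefore rest on the spread between these libraries alone, which may be technical.

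The kinetochore is the protein assembly that ties a chromosome to the spindle. Its inner layer, the constitutive centromere-associated network, sits on chromatin marked by the histone variant CENP-A, and its outer layer, built from the KNL1, MIS12 and NDC80 complexes, binds microtubules and recruits the spindle checkpoint proteins that delay anaphase until all chromosomes are attached. Many of these genes are transcribed late in the cell cycle, under E2F factors and under the MuvB complex, which is held at promoters by the short CHR element and works beside NF-Y bound to CCAAT boxes.

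Library totals ran from 46230392 to 50810126 counts in DMSO and from 36401828 to 57460375 in OTSSP167. All levels are in CPM, a gene's count relative to its library total, scaled between libraries by TMM factors. They are given for replicates 1 to 3 in that order, or as mean ± SD with n = 3. Adjusted p-values are those of edgeR's quasi-likelihood test over the 14402 genes that passed its filter on low counts, with a threshold of 0.05. Where a range of adjusted p is given, it runs over the other scalings, filters and tests and the left-out libraries. It includes a fit with the replicate number as a block, but not the test beyond 1.5-fold. CPM is a share of the counted reads, so a difference in RNA per cell or in the number of cells near mitosis cannot be told apart from a difference in transcript level per cell. Upper-quartile scaling in place of TMM moved the median log2 fold change of all genes from 0.01 to 0.11, a shift as large as the smallest change called below, that of MAD2L1. Of 8 adrenergic neuroblastoma markers, 6 were at 1 CPM or more in all 6 libraries, and TH, which encodes tyrosine hydroxylase, was under 1 CPM in all of them. Their summed level was 9112 to 9481 CPM in controls and 6226 to 6378 CPM after treatment. MYCN made up most of it and fell (7544 ± 99.9 to 4495 ± 17.8 CPM), while GATA3 rose (354 ± 5.52 to 819.6 ± 74.3 CPM). The summed level of 4 immune markers was 0.723 to 1.43 CPM in the controls and 18.5 to 21.3 CPM after treatment, with CD3E at 0 and PTPRC under 1 CPM throughout. Its rise was in CD14 (0.391 ± 0.122 to 14.2 ± 1.73 CPM) and CD74 (0.664 ± 0.287 to 5.56 ± 1.29 CPM). That of 4 fibroblast and endothelial markers was 83.2 to 97.9 and 34.9 to 35.7 CPM, with COL1A2 and PECAM1 under 1 CPM throughout. Most of it was PDGFRB (73.8 ± 5.09 to 27.1 ± 1.81 CPM), and COL1A1 fell too (18.0 ± 2.59 to 7.87 ± 2.32 CPM). Of 4 Schwann and glial and 3 epithelial markers, the sums stayed at or below 4.52 CPM in every library. The part of such cells in the results was not tested.

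Kinetochore and centromere transcripts changed in both directions after OTSSP167. CENPC, CENPH, CENPK, CENPM and CENPW of the inner network, SPC24 and SPC25 of the NDC80 complex and KNTC1 and ZWILCH of the RZZ complex fell to between 0.204 and 0.493 of their DMSO level, whereas CENPO, MIS12, NSL1 and SKA1 rose to between 1.46 and 1.70 times theirs. CENPL rose more, 9.04-fold between means, but its level and its rise are uncertain, as given below. Of the 38 genes, all of which passed the filter on low counts, 10 rose, 13 fell and 15 did not pass the test. That is 60.5% called, beside 46.1% of all genes tested, with 26.3% higher beside 23.8% and 34.2% lower beside 22.3%. The median log2 fold change was -0.08, beside 0.01 over all genes tested. Tested for a change beyond 1.5-fold, 9 of the 38 passed, 8 lower and 1 higher, which is 23.7% beside 19.6% of all genes (9.03% lower and 10.6% higher). The OTSSP167 libraries lay wholly above or below the DMSO libraries in 29 of the 38 genes (76.3%), beside 60.4% of all genes. They were above in 13 and below in 16 of the 38, beside 30.8% and 29.6% of all genes, and these 29 hold all 23 that passed the test. For log2 fold changes of 1 or more in size, with no test, the share was 26.3%, beside 30.6% of all genes; 9 of these 10 genes were lower and 1 higher, beside 14.3% and 16.3% of all genes.

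**Figure D1:**
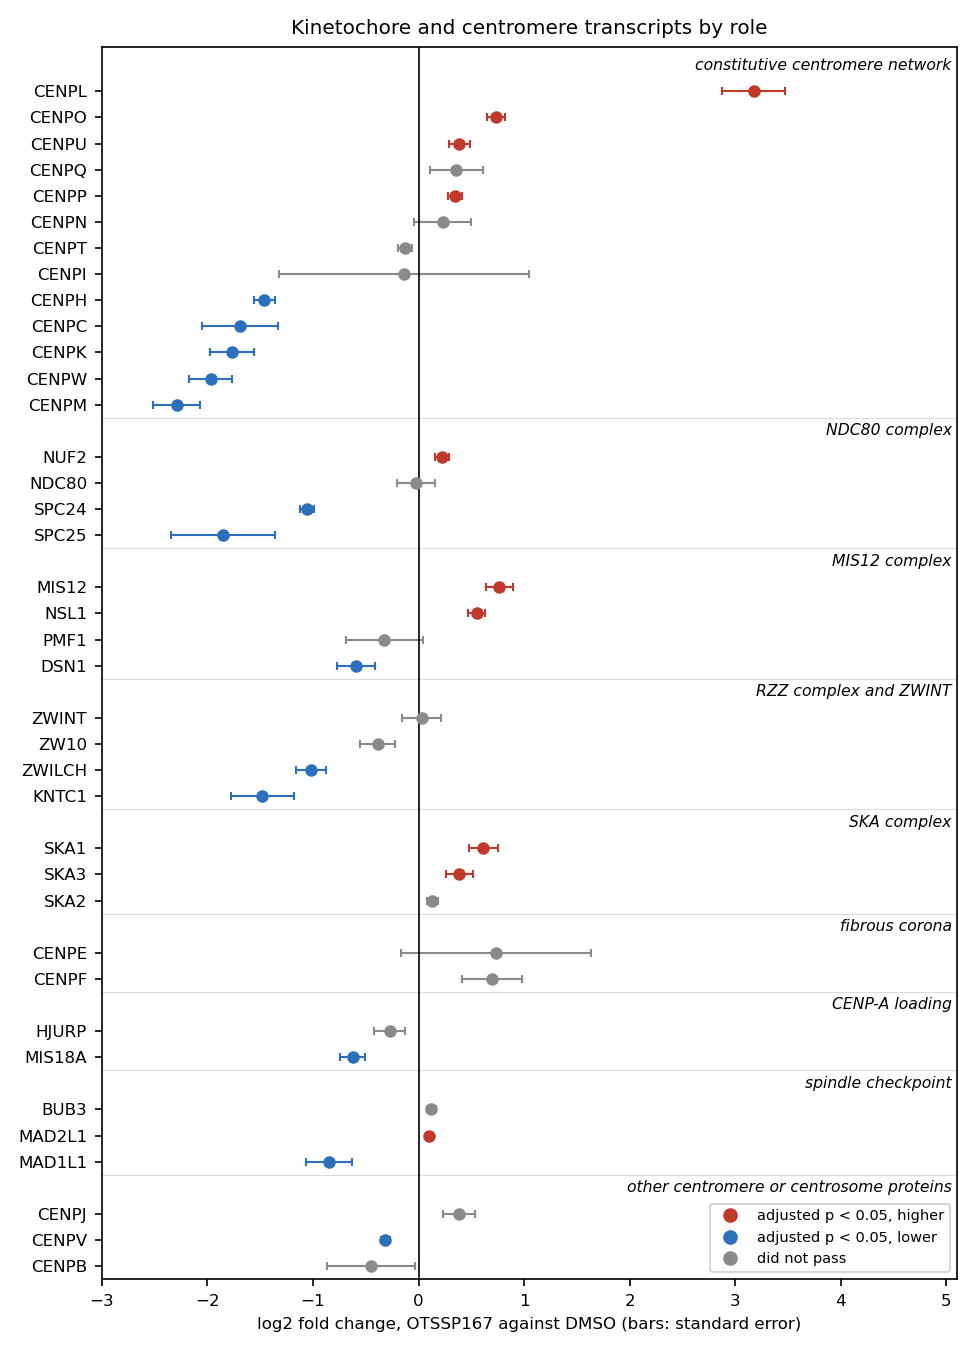
Log2 fold change of each of the 38 genes, OTSSP167 against DMSO, on the horizontal axis, with bars of 1 standard error, grouped by role; red and blue points passed edgeR's test higher or lower and grey points did not. Within the constitutive centromere network, the NDC80 complex and the MIS12 complex, blue and red points stand side by side, and CENPL lies farthest to the right at 3.18.

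The NDC80 complex is the rod that holds the microtubule. Its microtubule-binding end is a dimer of NDC80 and NUF2, and its inner end, which joins the kinetochore, is a dimer of SPC24 and SPC25. The promoters of the genes are shown here because both members of the inner dimer fell while both members of the outer dimer did not. They are the RefSeq sequences of build GRCh38.p14 from 250 bases before to 50 bases after the gene start, chr18:2571307-2571606 on the plus strand for NDC80, chr1:163321704-163322003 on the plus strand for NUF2, chr19:11155733-11156032 on the minus strand for SPC24 and chr2:168890381-168890680 on the minus strand for SPC25. Capitals mark matches, on either strand, to the CHR letters TTTGAA or TTCGAA, the box CCAAT, and the E2F letters TTCGCGC or TTGGCGC. In NDC80 2 CHR matches adjoin. RefSeq's starts of NUF2 and SPC25 lie inside the longer spans that GENCODE 29 gives below.
NDC80: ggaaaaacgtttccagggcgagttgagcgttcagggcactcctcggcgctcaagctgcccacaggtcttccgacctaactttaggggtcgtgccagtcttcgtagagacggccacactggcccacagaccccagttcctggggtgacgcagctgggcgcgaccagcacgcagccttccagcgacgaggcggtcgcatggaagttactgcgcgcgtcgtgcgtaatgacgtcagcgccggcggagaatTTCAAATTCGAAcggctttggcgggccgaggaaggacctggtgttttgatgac
NUF2: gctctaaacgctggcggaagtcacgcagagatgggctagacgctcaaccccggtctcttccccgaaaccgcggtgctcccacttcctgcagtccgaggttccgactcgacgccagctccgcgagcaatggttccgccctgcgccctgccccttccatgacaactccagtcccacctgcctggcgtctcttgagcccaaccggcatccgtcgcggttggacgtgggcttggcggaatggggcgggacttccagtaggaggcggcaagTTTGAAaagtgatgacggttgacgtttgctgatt
SPC24: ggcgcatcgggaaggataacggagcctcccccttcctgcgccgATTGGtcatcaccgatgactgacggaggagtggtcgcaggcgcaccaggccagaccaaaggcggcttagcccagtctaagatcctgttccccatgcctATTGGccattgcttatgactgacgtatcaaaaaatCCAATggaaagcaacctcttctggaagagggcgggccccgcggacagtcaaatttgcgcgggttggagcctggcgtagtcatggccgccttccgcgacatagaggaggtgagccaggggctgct
SPC25: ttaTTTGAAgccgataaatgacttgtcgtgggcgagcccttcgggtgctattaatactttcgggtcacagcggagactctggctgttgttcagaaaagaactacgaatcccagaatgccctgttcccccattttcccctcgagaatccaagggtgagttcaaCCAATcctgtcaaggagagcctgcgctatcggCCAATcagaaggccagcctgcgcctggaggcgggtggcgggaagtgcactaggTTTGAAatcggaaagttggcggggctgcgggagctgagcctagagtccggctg

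In these windows NDC80 and NUF2 had CHR letters next to the start and no CCAAT, SPC24 had 3 CCAAT boxes and no CHR letters, and SPC25 had both. RefSeq's promoter table held 31 of the 38 genes, and 14 of them (45.2%) had CHR letters, beside 16.4% of all 35116 promoters in the table. CCAAT was present in 18 (58.1%) beside 34.6%, and the E2F letters in 7 (22.6%) beside 5.06%. The shares are in unlike units. A gene of the 38 was counted if any of its promoters matched, and some, such as CENPP, have several, while the 35116 were counted promoter by promoter. Among genes with a promoter in the table, CHR letters were found in 5 of 9 that rose, 3 of 9 that fell and 6 of 13 that did not pass. CCAAT was found in 4 of 9, 6 of 9 and 8 of 13, and E2F letters in 2 of 9, 0 of 9 and 5 of 13. These are matches of letters only. The other 7 genes were BUB3, CENPH, CENPJ, CENPL, CENPM, KNTC1 and MIS18A.

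SPC24 (chromosome 19, 11131520 to 11155808, minus strand) measured 84.4, 78.6 and 81.0 CPM with DMSO and 40.1, 37.6 and 39.4 CPM with OTSSP167. The groups were far apart and each was tight (log2 fold change -1.06, SE 0.07, adjusted p = 0.000187). SPC25 (chromosome 2, 168834132 to 168913371, minus strand) measured 11.3, 23.5 and 10.1 CPM with DMSO and 2.55, 3.66 and 6.20 CPM with OTSSP167. Each OTSSP167 library was below each DMSO library, but the DMSO libraries spread 2.33-fold and the OTSSP167 libraries 2.43-fold (log2 fold change -1.85, SE 0.49, adjusted p = 0.028). The call of SPC25 was lost with DMSO replicate 2 left out (adjusted p = 0.0633), and with OTSSP167 replicate 1 or 2 left out (0.0714 and 0.0854), in a range of 0.000858 to 0.0854. NUF2 (chromosome 1, 163266576 to 163355764, plus strand) measured 82.1, 81.1 and 91.8 CPM with DMSO and 101, 101 and 95.2 CPM with OTSSP167, a small rise with all OTSSP167 libraries above all DMSO libraries (log2 fold change 0.22, SE 0.07, adjusted p = 0.0457). That call was lost without DMSO replicate 1 or 2 (adjusted p = 0.116 and 0.12) and without OTSSP167 replicate 1, 2 or 3 (0.116, 0.118 and 0.0614), in a range of 0.00409 to 0.124. The call of NUF2 was also lost with no filter on low counts. NDC80 (chromosome 18, 2571511 to 2616635, plus strand) measured 28.6 ± 5.48 CPM with DMSO and 28.1 ± 3.70 CPM with OTSSP167 and overlapped between groups; its estimate of -0.02 turned positive with DESeq2 size factors and with upper-quartile scaling.

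Levels per length bring the subunits onto 1 scale. In CPM per kilobase of merged exons, NDC80 stood at 7.94 in DMSO and 7.81 in OTSSP167, NUF2 at 25.3 and 29.5, SPC24 at 28.6 and 13.8, and SPC25 at 8.12 and 2.25. The ratio of SPC24 to NDC80 on this scale was 3.68 ± 0.602 in DMSO and 1.78 ± 0.196 in OTSSP167 (SD, n = 3), and that of NUF2 to NDC80 was 3.26 ± 0.608 and 3.83 ± 0.608. The distance between the lowest and the highest subunit of the complex was 3.61-fold in DMSO and 13.1-fold in OTSSP167. Merged exons count every annotated isoform, so a gene with long, little-used exons is understated on this scale.

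**Figure D2:**
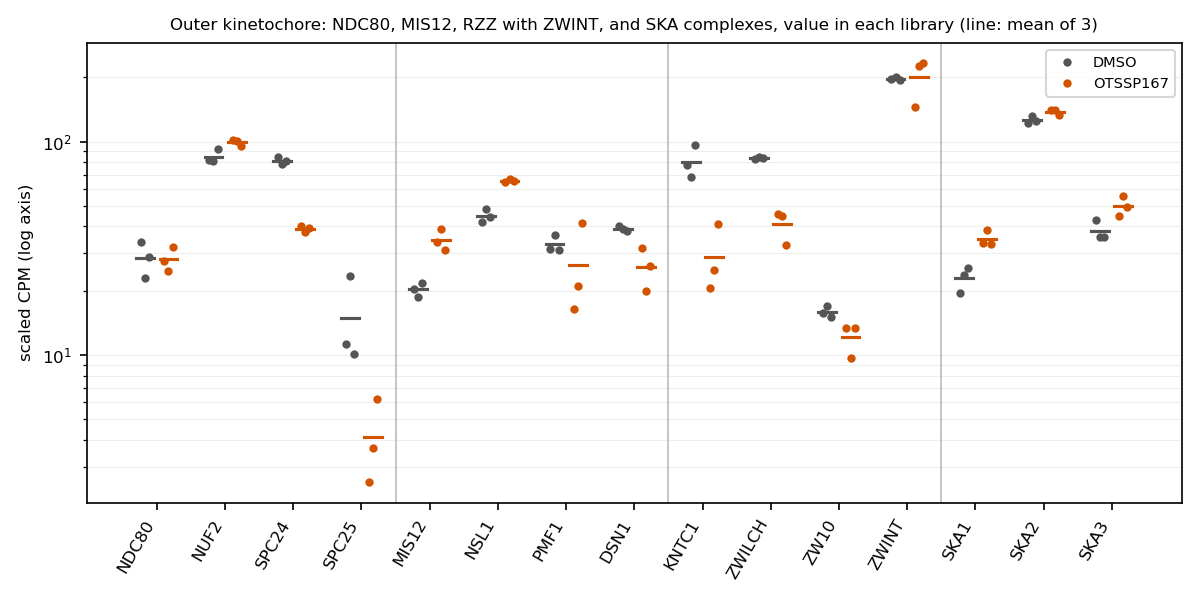
Scaled CPM on a log axis for 15 outer kinetochore genes; each dot is 1 library, grey for DMSO and orange for OTSSP167, and each line is the mean of 3. SPC24, SPC25, KNTC1 and ZWILCH show orange dots wholly below grey ones, MIS12, NSL1 and SKA1 wholly above, and NDC80 and ZWINT overlap.

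The MIS12 complex links the inner network to NDC80, and 2 of its subunits rose while 1 fell. MIS12 (chromosome 17, 5486285 to 5490814, plus strand) measured 20.4, 18.7 and 21.9 CPM with DMSO and 33.8, 38.7 and 31.0 CPM with OTSSP167 (log2 fold change 0.77, SE 0.12, adjusted p = 0.00516). NSL1 (chromosome 1, 212726153 to 212791782, minus strand) measured 42.1, 48.3 and 44.1 CPM with DMSO and 64.7, 67.0 and 65.2 CPM with OTSSP167 (log2 fold change 0.55, SE 0.08, adjusted p = 0.00302). Both rose, and in neither did the groups touch. DSN1 (chromosome 20, 36751791 to 36773818, minus strand), the subunit whose phosphorylation by Aurora B strengthens binding to the inner network, measured 40.1, 39.0 and 38.1 CPM with DMSO and 31.6, 19.8 and 26.2 CPM with OTSSP167 (log2 fold change -0.59, SE 0.18, adjusted p = 0.0423). Its fall lay close to the threshold: it did not pass without DMSO replicate 1, 2 or 3 (adjusted p = 0.109, 0.102 and 0.0911), without OTSSP167 replicate 3 (0.097), or with upper-quartile scaling (0.0731), in a range of 0.0113 to 0.109. DSN1 also did not pass where the filter asked for at least 1 CPM in all 6 libraries. PMF1, the fourth subunit, measured 31.2, 36.6 and 31.2 CPM with DMSO and 16.4, 21.2 and 41.6 CPM with OTSSP167; OTSSP167 replicate 3 lay above every DMSO library and the other two below (log2 fold change -0.32, SE 0.36, adjusted p = 0.506). Without OTSSP167 replicate 3, PMF1 was at a log2 fold change of -0.81 with adjusted p = 0.0211, in a range of 0.0211 to 0.873. Per kilobase of exons, the mean CPM of DSN1 was 14.3 with DMSO and 9.45 with OTSSP167, and that of MIS12 was 6.43 and 10.9. MIS12 shares 301 bases of exons with DERL2 on the opposite strand, which rose too (log2 fold change 0.93, adjusted p = 0.0075). PMF1 shares 587 bases with the readthrough gene PMF1-BGLAP. Reads of these pairs may be divided in an unknown way, as may those of CENPN, CENPT, CENPU, HJURP, NUF2, SPC24 and ZWILCH, which also share exon bases with another gene of the table. NUF2 and HJURP share only 5 and 8 bases. ZWILCH shares 158 bases with RPL4, which is at 1577 CPM with DMSO. CENPT shares 110 bases with NUTF2, which rose (log2 fold change 0.63, adjusted p = 0.000115). It shares 380 bases with THAP11, which fell (-0.38, adjusted p = 0.0176).

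The RZZ complex, made of KNTC1 (the Rod protein), ZWILCH and ZW10, builds the corona of an unattached kinetochore and brings dynein and the MAD1 to MAD2 checkpoint complex to it. KNTC1 (chromosome 12, 122527246 to 122626396, plus strand) measured 77.6, 68.0 and 96.0 CPM with DMSO and 20.5, 25.0 and 41.2 CPM with OTSSP167 (log2 fold change -1.48, SE 0.30, adjusted p = 0.0115). ZWILCH (chromosome 15, 66504959 to 66550128, plus strand) measured 82.5, 84.3 and 84.0 CPM with DMSO and 46.0, 44.8 and 32.9 CPM with OTSSP167 (log2 fold change -1.02, SE 0.14, adjusted p = 0.00306). Both fell with the groups apart, and both kept the call under every alternative. ZW10 (15.9 ± 0.987 CPM with DMSO and 12.2 ± 2.11 CPM with OTSSP167) was lower in every OTSSP167 library but did not pass (log2 fold change -0.39, SE 0.17, adjusted p = 0.11). ZWINT, a KNL1-binding protein at 82.7 CPM per kilobase in DMSO, against 5.32 for ZW10, measured 196, 201 and 194 CPM with DMSO and 145, 225 and 232 CPM with OTSSP167. Its OTSSP167 libraries lay on both sides of DMSO (log2 fold change 0.03, SE 0.18, adjusted p = 0.911); without OTSSP167 replicate 1 it was 0.22 higher with adjusted p = 0.0147, in a range of 0.0147 to 0.995, and without replicate 2 or 3 its estimate was negative.

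In the SKA complex, which keeps kinetochores on the ends of moving microtubules, 2 of the 3 genes rose. SKA1 (chromosome 18, 50374995 to 50394173, plus strand), the microtubule-binding subunit, measured 19.5, 23.7 and 25.5 CPM with DMSO and 33.4, 38.3 and 33.2 CPM with OTSSP167 (log2 fold change 0.61, SE 0.14, adjusted p = 0.0154). SKA3 (chromosome 13, 21153595 to 21176602, minus strand) measured 42.8, 35.8 and 35.9 CPM with DMSO and 44.9, 55.7 and 49.3 CPM with OTSSP167 (log2 fold change 0.39, SE 0.12, adjusted p = 0.0484). SKA2 measured 126 ± 4.60 CPM with DMSO and 138 ± 4.04 CPM with OTSSP167 and did not pass (log2 fold change 0.13, SE 0.05, adjusted p = 0.073). All 3 subunits were higher in each OTSSP167 library than in any DMSO library, by small amounts. SKA3 lost its call without DMSO replicate 2 or 3 (adjusted p = 0.143 and 0.141) and without OTSSP167 replicate 2 or 3 (0.126 and 0.0992), in a range of 0.00714 to 0.143. Its call was also lost with library size as the only scaling and with no filter on low counts. SKA2 passed with DESeq2 (adjusted p = 0.00822) and with upper-quartile scaling (0.01), in a range of 0.00822 to 0.199.

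The 13 genes of the constitutive centromere network, the scaffold on CENP-A chromatin, showed the widest range. Here 4 rose, CENPL among them, 5 fell and 4 did not pass. CENPC (chromosome 4, 67468748 to 67545606, minus strand), which binds the CENP-A nucleosome directly and is the base of the network, measured 32.0, 40.2 and 33.3 CPM with DMSO and 6.20, 10.6 and 15.9 CPM with OTSSP167 (log2 fold change -1.69, SE 0.36, adjusted p = 0.0134). It fell to 0.31 of its DMSO level, and the OTSSP167 libraries spread 2.57-fold.

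Of the subunits that form the CENP-H, I, K and M module, 3 fell. CENPH (chromosome 5, 69189548 to 69210357, plus strand) measured 63.8, 76.3 and 71.2 CPM with DMSO and 23.9, 26.2 and 26.7 CPM with OTSSP167 (log2 fold change -1.46, SE 0.10, adjusted p = 0.00025). CENPK (chromosome 5, 65517766 to 65563171, minus strand) measured 25.4, 18.0 and 16.9 CPM with DMSO and 6.23, 5.21 and 6.31 CPM with OTSSP167 (log2 fold change -1.76, SE 0.21, adjusted p = 0.00162). CENPM (chromosome 22, 41938721 to 41947164, minus strand) measured 5.20, 6.81 and 5.57 CPM with DMSO and 1.02, 1.17 and 1.39 CPM with OTSSP167 (log2 fold change -2.29, SE 0.22, adjusted p = 0.000807). The groups were apart in each, by 2.75-, 3.40- and 4.90-fold between means. CENPM rests on 40, 67 and 51 counts in the OTSSP167 libraries. The last subunit, CENPI, measured 1.33, 0.677 and 9.68 CPM with DMSO and 6.23, 0.859 and 3.55 CPM with OTSSP167, and its libraries ranged 14.3-fold within DMSO, so no difference could be read from it at this spread (log2 fold change -0.14, SE 1.19, adjusted p = 0.933). CENPW (chromosome 6, 126340174 to 126348875, plus strand), a histone-fold partner of CENPT on centromeric DNA, measured 18.3, 14.3 and 18.0 CPM with DMSO and 5.26, 4.03 and 3.66 CPM with OTSSP167 (log2 fold change -1.97, SE 0.20, adjusted p = 0.00105). CENPW fell 3.91-fold, while CENPT, which carries a docking site for the NDC80 complex, measured 64.7 ± 2.52 CPM with DMSO and 59.0 ± 2.20 CPM with OTSSP167 and did not pass (log2 fold change -0.13, SE 0.07, adjusted p = 0.158).

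The CENP-O, P, Q and U module, which binds the mitotic kinase PLK1 through CENPU, holds 4 of the 38 genes, of which 3 rose. Its further subunit CENP-R, encoded by ITGB3BP and not among the 38, fell, as given below. CENPO (chromosome 2, 24793136 to 24822376, plus strand) measured 139, 138 and 146 CPM with DMSO and 251, 206 and 248 CPM with OTSSP167 (log2 fold change 0.74, SE 0.09, adjusted p = 0.00177). CENPP (chromosome 9, 92325484 to 92620533, plus strand) measured 46.0, 45.8 and 43.2 CPM with DMSO and 57.1, 55.3 and 59.0 CPM with OTSSP167 (log2 fold change 0.34, SE 0.07, adjusted p = 0.0106). CENPU (chromosome 4, 184694618 to 184734133, minus strand) measured 105, 117 and 113 CPM with DMSO and 158, 153 and 126 CPM with OTSSP167 (log2 fold change 0.39, SE 0.10, adjusted p = 0.027). In all 3 the OTSSP167 libraries lay above the DMSO libraries. CENPQ measured 8.05 ± 1.99 CPM with DMSO and 10.3 ± 1.83 CPM with OTSSP167 and overlapped between groups (log2 fold change 0.36, SE 0.25, adjusted p = 0.296). The call of CENPU was lost without DMSO replicate 1, 2 or 3 (adjusted p = 0.0797, 0.0515 and 0.0714) and without OTSSP167 replicate 1 or 2 (0.0727 and 0.0807), in a range of 0.0022 to 0.0807. Per kilobase, CENPH stood at 0.831 ± 0.0307 times CENPU in DMSO and at 0.235 ± 0.041 times CENPU in OTSSP167 (SD, n = 3). Exons of CENPO share 1488 bases with ADCY3 and those of CENPP 3719 bases with IPPK, both on the opposite strand. IPPK rose (log2 fold change 0.48, adjusted p = 0.0435) and ADCY3 did not pass (0.56, 0.204). Without a stated strand setting reads in the shared exons cannot be assigned.

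**Figure D3:**
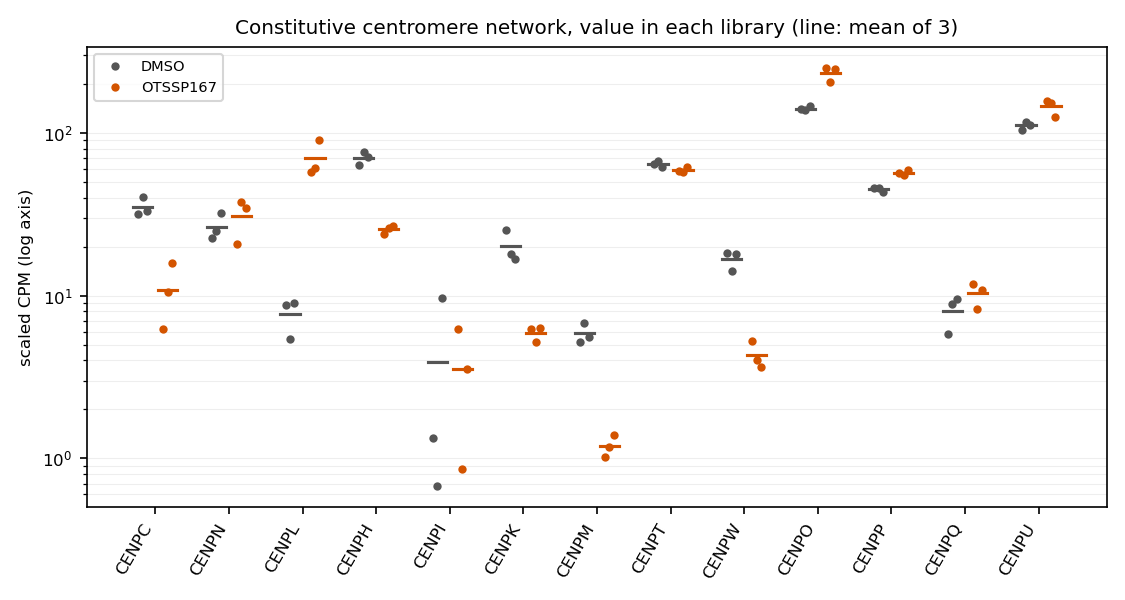
Scaled CPM on a log axis for the 13 genes of the constitutive centromere network; each dot is 1 library, grey for DMSO and orange for OTSSP167, and each line is the mean of 3. CENPC, CENPH, CENPK, CENPM and CENPW drop, CENPL climbs, CENPO, CENPP and CENPU rise slightly, and CENPI scatters in both groups.

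CENPL (chromosome 1, 173799550 to 173824720, minus strand) gave the largest change of the 38 genes. With its partner CENPN it forms the pair that recognises CENP-A together with CENPC. CENPL measured 8.75, 5.39 and 9.05 CPM with DMSO and 58.0, 61.2 and 90.6 CPM with OTSSP167 (log2 fold change 3.18, SE 0.30, adjusted p = 0.000808), a rise of 9.04-fold between means, while CENPN measured 26.5 ± 5.03 CPM with DMSO and 31.1 ± 8.95 CPM with OTSSP167 and did not pass (log2 fold change 0.23, SE 0.27, adjusted p = 0.521). CENPL passed under every other scaling, filter and test and with any library left out (adjusted p = 1.81e-24 to 0.00665, and 0.00221 beyond 1.5-fold). Its exons overlap those of another gene on the opposite strand, and with counts whose strand setting is not given, its level and its rise are uncertain.

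Of the factors that load CENP-A, MIS18A (chromosome 21, 32268219 to 32279069, minus strand), a subunit of the complex that licenses the centromere for loading, measured 48.9, 49.1 and 48.9 CPM with DMSO and 26.8, 33.6 and 35.0 CPM with OTSSP167 (log2 fold change -0.62, SE 0.12, adjusted p = 0.00929). It fell with the groups apart. HJURP, the CENP-A chaperone, measured 65.4 ± 6.46 CPM with DMSO and 54.1 ± 8.60 CPM with OTSSP167, lower in each OTSSP167 library but short of the threshold (log2 fold change -0.27, SE 0.15, adjusted p = 0.18).

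Of the 3 checkpoint genes, 1 fell and 1 rose. MAD1L1 (chromosome 7, 1815793 to 2233243, minus strand), which anchors MAD2 at unattached kinetochores, measured 27.2, 27.5 and 30.1 CPM with DMSO and 12.4, 20.7 and 13.9 CPM with OTSSP167 (log2 fold change -0.85, SE 0.22, adjusted p = 0.0245). MAD2L1 (chromosome 4, 120055608 to 120067074, minus strand), which encodes MAD2, the inhibitor of the anaphase-promoting complex, measured 306, 312 and 304 CPM with DMSO and 328, 337 and 321 CPM with OTSSP167 (log2 fold change 0.10, SE 0.03, adjusted p = 0.0431). MAD1L1 fell to 0.555 of its DMSO level and MAD2L1 rose to 1.07 times its own. BUB3, the WD-repeat partner of BUB1 and BUBR1, measured 123 ± 2.33 CPM with DMSO and 134 ± 3.41 CPM with OTSSP167 and did not pass (log2 fold change 0.12, SE 0.04, adjusted p = 0.0613), but did with DESeq2 (adjusted p = 0.00218) and upper-quartile scaling (0.00946), in a range of 0.00218 to 0.199. The calls of both MAD genes depended on single libraries. MAD1L1 did not pass without DMSO replicate 1, 2 or 3 (adjusted p = 0.0558, 0.0568 and 0.0655) or OTSSP167 replicate 1 or 3 (0.0539 and 0.0728), in a range of 0.00139 to 0.0728. MAD2L1 did not pass without DMSO replicate 1, 2 or 3 (0.109, 0.069 and 0.135) or OTSSP167 replicate 1 or 2 (0.0999 and 0.12), in a range of 0.00171 to 0.135. With no filter on low counts MAD2L1 did not pass either.

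The corona proteins and the remaining genes were less certain. CENPF (chromosome 1, 214603195 to 214664588, plus strand), a large dynein-regulating protein of the corona, stood at 81.6 CPM per kilobase in DMSO and 132 in OTSSP167. It measured 977, 934 and 952 CPM with DMSO and 925, 1708 and 2010 CPM with OTSSP167; OTSSP167 replicate 1 lay with DMSO and the other two above it (log2 fold change 0.70, SE 0.28, adjusted p = 0.0959). Without OTSSP167 replicate 1, CENPF was 0.96 higher on the log2 scale with adjusted p = 0.00184, and it passed with DESeq2 (0.0403), in a range of 0.00184 to 0.233. CENPE, the kinesin motor that carries chromosomes to the spindle equator, measured 13.3, 24.4 and 54.0 CPM with DMSO and 77.5, 8.77 and 66.2 CPM with OTSSP167, with OTSSP167 replicate 2 below every DMSO library and the other two above (log2 fold change 0.73, SE 0.90, adjusted p = 0.54). CENPV (chromosome 17, 16342534 to 16353656, minus strand), a protein of the centromere and spindle midzone, measured 282, 281 and 285 CPM with DMSO and 227, 238 and 217 CPM with OTSSP167, a small fall (log2 fold change -0.31, SE 0.04, adjusted p = 0.00221). It remained lower when summed with PIGL, which overlaps it by 258 bases and rose (log2 fold change -0.28, adjusted p = 0.00366). Its copies CENPVP1 and CENPVP3 have rows of their own, so its reads may be divided. CENPB, which binds a motif in alpha-satellite DNA, measured 91.7 ± 38.2 CPM with DMSO and 67.1 ± 21.6 CPM with OTSSP167 and overlapped between groups. CENPJ, which despite its name is a centriole-building protein, measured 43.4 ± 7.28 CPM with DMSO and 56.7 ± 4.64 CPM with OTSSP167, higher in each OTSSP167 library, and did not pass (log2 fold change 0.38, SE 0.15, adjusted p = 0.0829). It passed with DESeq2 (adjusted p = 0.0328) and with upper-quartile scaling (0.044), in a range of 0.0328 to 0.2.

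Libraries of a group lay far apart for some of these genes. In 8 of the 38 the highest library of a group was at least 2-fold above the lowest (21.1%), beside 31.7% of genes above 0 in all libraries. They are CENPB, CENPC, CENPE, CENPF, CENPI, KNTC1, PMF1 and SPC25, and 3 of them passed the test. CENPE, on 500 to 3038 counts, spanned 8.84-fold within OTSSP167. The median SD of log2 CPM over the 38 genes was 0.122 in DMSO and 0.216 in OTSSP167, beside 0.184 and 0.217 over all genes tested that were above 0 in all libraries. Among the 38 genes, which share the same 6 libraries, the log2 fold change had a Spearman correlation of 0.0454 with the length of the gene, 0.339 with that of its merged exons and 0.146 with its DMSO level.

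**Figure D4:**
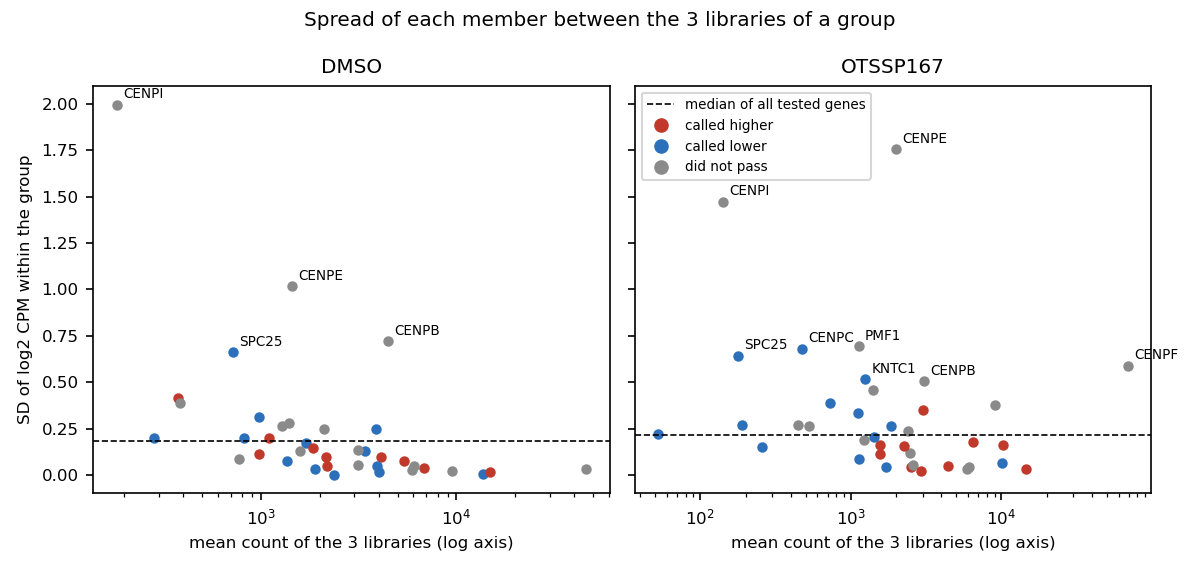
SD of log2 CPM between the 3 libraries of a group on the vertical axis, for each of the 38 genes. The horizontal log axis is the mean count of those libraries, with DMSO on the left and OTSSP167 on the right. The dashed line is the median over tested genes above 0 in all libraries. In DMSO most genes lie below the line. In OTSSP167 the median of the 38 genes (0.216) is close to the line (0.217). CENPI and CENPE lie above 1 in both panels.

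A list of 40 other genes of kinetochore assembly and the spindle checkpoint held 39 that were tested, of which 10 rose and 9 fell (median log2 fold change -0.04); CENPBD1 was at 0 in all libraries. That is 48.7% called, close to the 46.1% of all genes. The rises with the smallest p were those of CDCA8 (149 ± 0.921 to 262 ± 2.02 CPM), AURKB (143 ± 1.84 to 272 ± 9.83 CPM) and BIRC5 (207 ± 6.73 to 377 ± 8.60 CPM), all of the chromosomal passenger complex at the inner centromere. The falls with the smallest p were those of DYNLL1, a dynein light chain (186 ± 6.98 to 81.1 ± 3.60 CPM), RCC2 (1076 ± 8.11 to 948 ± 5.78 CPM) and OIP5, the MIS18-beta partner of MIS18A (28.1 ± 1.98 to 10.4 ± 0.945 CPM). The genes that complete the complexes above were named after their values were seen. ITGB3BP, which encodes CENP-R of the CENP-O module, fell (log2 fold change -1.69, SE 0.25, adjusted p = 0.00397), against the rises of CENPO, CENPP and CENPU. APITD1 and STRA13, which encode the CENP-S and CENP-X partners of CENPT and CENPW, measured 24.7 ± 1.16 CPM with DMSO and 23.2 ± 0.825 CPM with OTSSP167 and 33.8 ± 4.97 CPM with DMSO and 31.9 ± 3.95 CPM with OTSSP167 and did not pass (adjusted p = 0.453 and 0.691). CASC5, which encodes KNL1, measured 57.4 ± 13.8 CPM with DMSO and 46.2 ± 27.0 CPM with OTSSP167 and did not pass (adjusted p = 0.613).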

How the data were processed

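The authors deposited 1 table of whole-number counts per gene symbol for 6 libraries of NGP cells, 3 with DMSO and 3 with OTSSP167 at 60 nM for 12 h. Per the submitters' processing notes, FastQC 0.11.2, HISAT2 2.1.0, StringTie 1.3.5 and the build GRCh38.p13 were used. Not given in the sources used here are the counting step, its annotation and its strand setting. Each column name carries a group and a replicate number, which tied it to its sample; 0 columns were left over. Where a symbol had several rows (58 symbols), the one with the larger total was used.

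Treatment was tested on these counts by edgeR 4.0.16 under R 4.3.3: filterByExpr, TMM scaling, a robust quasi-likelihood F test, and Benjamini-Hochberg adjustment over 14402 genes with a threshold of 0.05. The code was checked on simulated counts. Standard errors are the absolute log2 fold change over the root of F. Alternatives were DESeq2 1.42.0, limma-voom (limma 3.58.1), 3 other scalings, 2 other filters, a 1.5-fold threshold, a block for the replicate number, and leaving out 1 library at a time. Gene positions, merged exons and overlaps come from GENCODE 29 on GRCh38, matched by symbol. Values in each library are given for each called gene and each with a log2 fold change of 1 or more in size, and for others of the 38 where single libraries disagreed, which were chosen after their values were seen. Of the 40 further genes, the rule names the 3 with the smallest p in each direction. The members and lists were chosen with earlier results of these data known. No library was a copy of another (chi-square per gene of 93.2 to 110.4 between replicates, where 1 is sampling noise).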

Additional observations from a re-analysis of the deposited data

How the results depend on the processing

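Of the 23 called genes, 9 passed in every alternative scaling, filter and test (the 1.5-fold threshold included) and with any library left out, 6 lost the call only against the 1.5-fold threshold, and 0 changed direction. The count of called genes among the 38 was 16 to 20 with single libraries left out (16 to 19 of the 40 further genes, 5540 to 5870 of all genes), where fewer libraries were used. It was 9 against 1.5-fold, as for the 40 further genes (9) and all genes (2826), since that test asks for a larger change. With the replicate number as a block it was 15 of 38, 16 of the 40 and 4887 of all genes (33.9%), against 23, 19 and 6638 without it. Same-numbered libraries deviated together with correlations of 0.0221 to 0.0324, which are small, and all 6 correlated best with their own number. Whether the replicates were paired was not tested. Upper-quartile scaling gave 13 higher and 12 lower of the 38, and the block ended 8 calls, those of CENPP (adjusted p = 0.0559), CENPU (0.0708), NUF2 (0.124), SPC25 (0.0664), DSN1 (0.0667), SKA3 (0.131), MAD1L1 (0.0525) and MAD2L1 (0.0816). Estimates near 0 or from scattered libraries changed sign, and the cause was not tested. CENPI was 0.26 with limma-voom, 0.36 with the block, 1.80 without DMSO replicate 3 and 0.33 without OTSSP167 replicate 2 (-0.83 to 1.80 over libraries left out). NDC80 was 0.00036 with DESeq2 size factors, 0.077 with upper-quartile scaling, 0.038 with at least 1 CPM in all 6 libraries and -0.17 to 0.11 with libraries left out. ZWINT was -0.0018 with the block and -0.091 to 0.22 with libraries left out. CENPV summed with PIGL, an alternative added after seeing the data, was -0.28. Counting depth was low for CENPM and CENPI, with as few as 40 and 32 counts in a library. Sampling noise at these counts is 15.8% and 17.7%. CENPI held 68, 32 and 448 counts in the DMSO libraries, a 14.3-fold range in CPM whose cause was not tested.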
